A study of Mus musculus with 7 samples.

Results

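Extracellular adenosine and the breakdown of purines were followed through 10 genes in satellite cells, which repair and maintain skeletal muscle. The genes are the 4 adenosine receptors Adora1, Adora2a, Adora2b and Adora3, the ecto-enzymes Entpd1 and Nt5e, and the enzymes Ada, Adk, Pnp and Xdh. The set was chosen by the array values of Xdh, higher in geriatric cells, and of Adora2b, lower in them, in these same data, so the geriatric-against-young values of these genes are given as a description and no p-value is attached to either. Every array probe that the files name after a member was taken, which gave 14 of the 55681 probes other than controls, for 10 of the 36406 names on the array.

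Satellite cells came from dissociated skeletal muscle of male C57BL/6 mice kept in homeostasis, with no injury or treatment named in the labels. Young mice were 2, 2 and 3 months old on the 3 arrays of their group, and geriatric mice were 28, 28, 29 and 30 months old on 4 arrays. The sort kept cells positive for both integrin α7 and CD34 and removed those carrying CD31, CD45, CD11b or Sca1, and their RNA was amplified by a whole-transcriptome method made for very small cell numbers. Geriatric arrays 1 and 2 share a sample name in their descriptions, and their signals differed by less than 2 combined measurement errors at 94.3% of probes, against 49.2% to 57.9% on the other 20 pairs of arrays. They were averaged and counted as 1 sample, which left 3 young and 3 geriatric samples. No label says whether a sample was 1 mouse or several pooled, and the errors below measure only the spread between these samples. The arrays' 75th percentiles lay between 1330 and 1609 intensity units, and 38052 to 41293 probes were well above background on each array. All 10 satellite cell markers that were checked, among them Pax7, Itga7 and Cd34, were well above background on all 7 arrays, with a median log2 difference of 0.06. In RNA from a sorted population, fewer cells that express a gene and less of its RNA per cell cannot be told apart.

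As background, ATP released from cells is cut to AMP by ectonucleotidases such as Entpd1 and then to adenosine by Nt5e, and the adenosine signals through receptors that either raise cyclic AMP (Adora2a, Adora2b) or lower it (Adora1, Adora3). Inside the cell, adenosine is returned to AMP by Adk or deaminated to inosine by Ada. Pnp splits inosine to hypoxanthine, and Xdh oxidises hypoxanthine to xanthine and on to uric acid, with reactive oxygen species formed when oxygen takes up the electrons.

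Of the 14 member probes, 9 were well above background on all 7 arrays and 2 on none. A probe had to exceed background clearly on 3 or more of the 7 arrays to be tested, which 11 probes of 9 genes did. Entpd1 was not tested. Values below are processed signals in intensity units, array by array, or levels, meaning log2 signal minus the array's 75th percentile. Levels of different probes cannot be compared with each other on such arrays. With limma and Benjamini-Hochberg adjustment over 27391 features, 0 of the 9 tested members passed an adjusted p of 0.05, and 7 features (0.0256%) did over the whole array, 3 of them higher (0.011%) and 4 lower (0.0146%). None of the 7 tested members other than Xdh and Adora2b had an unadjusted p under 0.05, against 1981 features (7.23%) over the array. The 9 members had a median log2 difference, geriatric minus young, of 0.02, and the median of all features was -0.0024. Of these 9, 5 were higher and 4 lower, with the sign for Adora3 turning under array median scaling, quantile normalization and the authors' own values.

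**Figure D1:**
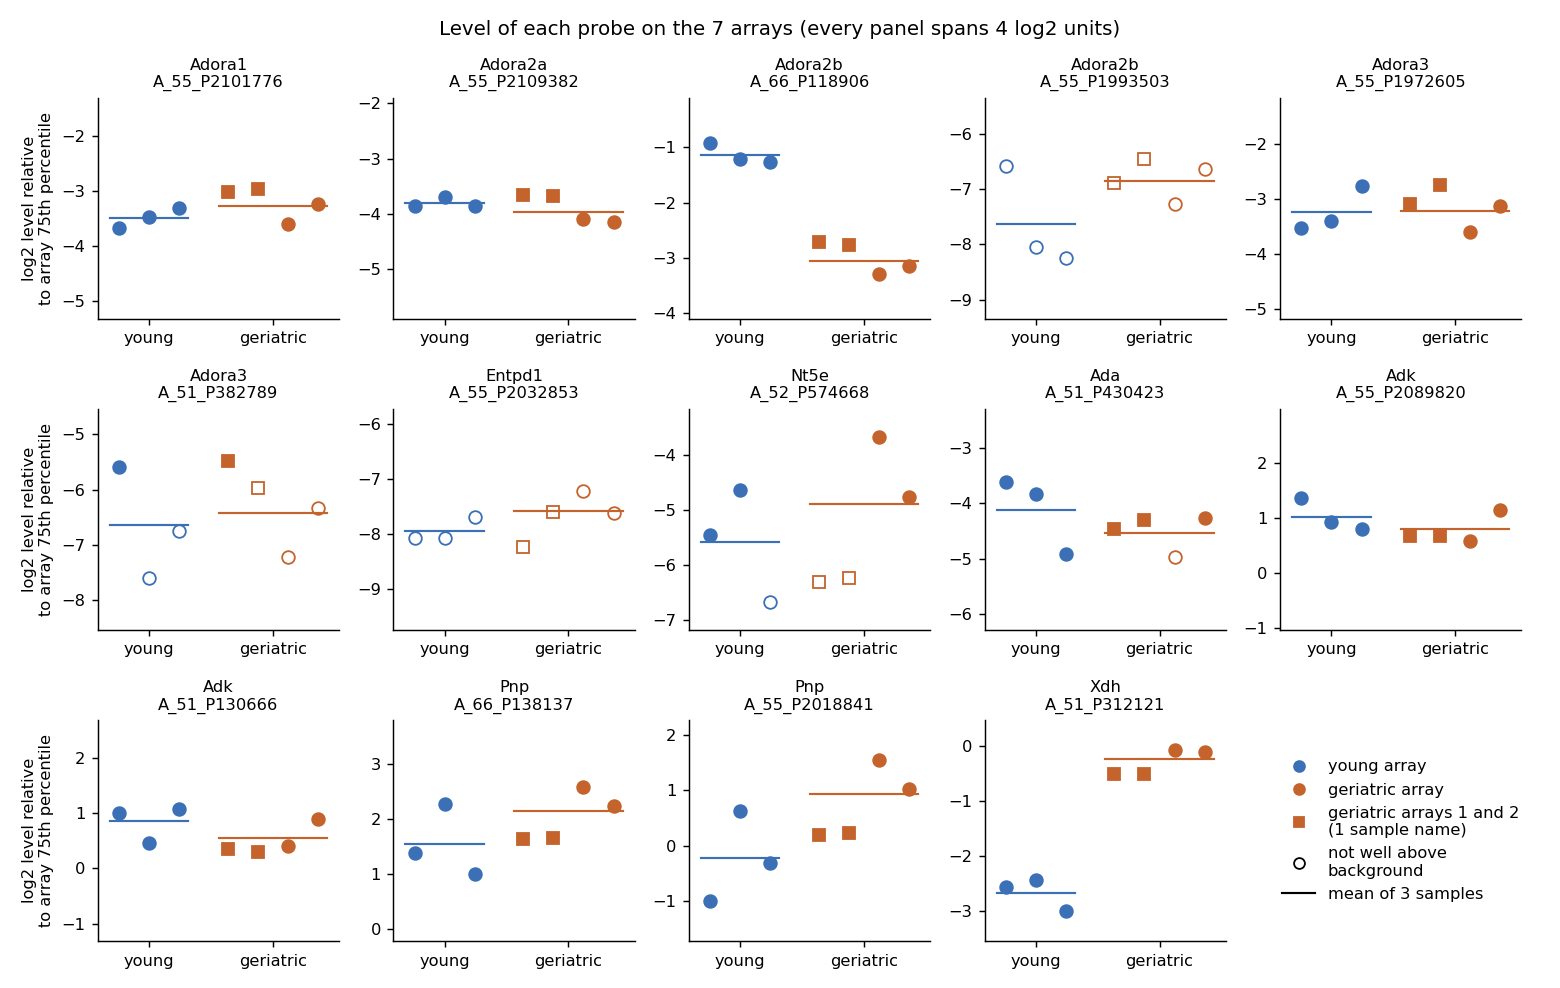
Level (log2 signal relative to the array's 75th percentile, vertical axis) of each of the 14 member probes on the 3 young and 4 geriatric arrays; open symbols mark arrays where the probe was not well above background, squares mark geriatric arrays 1 and 2, and lines mark the mean of 3 samples per group. Only the Xdh probe and the first Adora2b probe separate the groups, with all geriatric arrays above the young in Xdh and below them in Adora2b.

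Among the receptors, Adora2b stood apart. Adora2b is the receptor of low affinity for adenosine, known to act where extracellular adenosine is high. Its first probe, A_66_P118906, lies in the coding part of the transcript at position 643, at chr11:62078754-62078813 on the plus strand of mm9, and the second, A_55_P1993503, starts 1080 bases further along at chr11:62079834-62079893. Both sequences are shown because the probes gave different signals. The first is whole, and the stretch from the second has its polyadenylation hexamer in capitals.
Adora2b A_66_P118906: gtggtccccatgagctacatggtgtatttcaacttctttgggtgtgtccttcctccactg
Adora2b A_55_P1993503: cttctcttccacATTAAAgtttattgggac

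The coding probe of Adora2b read 766.4, 656 and 667.1 on the young arrays and 240.2, 209.1, 161.3 and 150.5 on geriatric arrays 1 to 4. Every geriatric array was below every young one, and the scanner software's own error per spot was 65.9 to 76.9 for the young and 16.5 to 24.7 for the geriatric signals. The level was -1.13 ± 0.19 (SD, n = 3) in young and -3.06 ± 0.29 (SD, n = 3) in geriatric cells, a log2 difference of -1.93 with a standard error of 0.22, or 3.80-fold lower. Over the array, 208 of 27391 features had a larger difference in that direction, and 1548 (5.65%) had all 3 geriatric samples below all 3 young. The distal probe never stood well above background, with 15.03, 5.749 and 5.329 on the young arrays and 13.4, 16.23, 10.33 and 13.39 on the geriatric ones. It therefore gives no second reading of the difference. The hexamers AATAAA and ATTAAA, searched on the printed probe strand only, occur in 10.06% and 3.95% of all 60-base probes.

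Adora1, a receptor that lowers cyclic AMP, was measured at chr1:136095833-136095892 and read 113.4, 137.3 and 161.7 in young against 195, 182.9, 130.7 and 141 in geriatric cells. The groups overlapped, with the highest signals on the 2 averaged geriatric arrays. The log2 difference was 0.21 with a 95% interval of -0.33 to 0.75 (limma adjusted p = 0.896), and it was 0.07 without the averaged sample, 0.12 without young array 1 and 0.37 without geriatric array 3.

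Adora2a, the other receptor that raises cyclic AMP, read 99.8, 118 and 110.2 on young arrays and 125.5, 110.7, 92.3 and 75.14 on geriatric arrays, from a probe at chr10:74797461-74797520. Its geriatric arrays spanned values above and below the young ones. The log2 difference was -0.17, with a 95% interval of -0.64 to 0.31 (limma adjusted p = 0.908). It was -0.32 without the averaged sample, -0.11 without young array 2, -0.10 without geriatric array 3 and -0.08 without geriatric array 4. It was 0.15 among the 4 arrays of the first slide row (as read from the ends of the sample descriptions), which holds the 3 young arrays and geriatric array 1. Whether Adora2a and Adora2b differ in their response was not itself tested.

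Adora3, which lowers cyclic AMP and is known from mast cells and other leukocytes, has 2 probes on the array. The main one, A_55_P1972605 at chr3:105711212-105711271, read 125.5, 145.2 and 236.9 on young arrays and 185.2, 212.9, 131 and 152.7 on geriatric arrays. The groups overlapped fully, with a log2 difference of 0.02 and a 95% interval of -0.70 to 0.73 (limma adjusted p = 0.994). In the RefSeq table for GRCm38.p6 the accessions listed for this probe belong to Adora3 and to Tmigd3, so the signal cannot be given to Adora3 alone. The other, A_51_P382789, spans 1242 bases at chr3:105721698-105722939 and its accession belongs to Tmigd3 in that table, although the array files name it Adora3. It was well above background on young array 1 and geriatric array 1 only, at 29.86 and 35.38. The 2 stretches are shown because only the first probe bears the Adora3 accession, and its polyadenylation hexamer is in capitals.
Adora3 A_55_P1972605: gtgcatttgagcaAATAAAagatgatgccc
Adora3 A_51_P382789: cagagggctcccgaatgtccattctgatca

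Of the enzymes that make adenosine outside the cell, Entpd1 gave no usable signal. Its probe, at chr19:40816008-40816067, read 5.245 to 10.59 and was above background on none of the 7 arrays, so there is only a bound on its level in either group. Nt5e, which turns AMP into adenosine, read 32.78, 61.29 and 15.85 on young arrays and 20.1, 18.85, 123.7 and 49.13 on geriatric arrays, from a probe at chr9:88266616-88266675. Only young arrays 1 and 2 and geriatric arrays 3 and 4 had it well above background. The spread within each group was larger than the difference between them, which was 0.69 on the log2 scale with a 95% interval of -1.28 to 2.66 (limma adjusted p = 0.908). The difference was 0.08 without geriatric array 3, 0.15 without young array 3, 1.16 without young array 2 and 1.37 without the averaged sample, and it was -0.71 among the arrays of the first slide row.

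Intracellular adenosine is used by Ada and Adk. Ada, whose loss causes severe immunodeficiency, read 117.8, 106.7 and 53.33 on young arrays and 71.69, 71.95, 50.62 and 69.45 on geriatric arrays, at chr2:163552581-163552640. Young array 3 lay among the geriatric arrays and the groups overlapped. The log2 difference was -0.41, with a 95% interval of -1.40 to 0.58 (limma adjusted p = 0.886). It was -0.81 without young array 3 and -0.16 without young array 1, the ends of its range when each array was left out.

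Adk, the kinase that returns adenosine to AMP, was bright on every array and has 2 tested probes. The one at chr14:22059713-22059772, in the coding part, read 3700, 2880 and 2776 on young arrays and 2525, 2254, 2369 and 2912 on geriatric arrays. The one at chr14:22267635-22267694 read 2907, 2116 and 3403 on young arrays and 2021, 1738, 2109 and 2485 on geriatric arrays. Both put the groups in overlapping ranges, with log2 differences of -0.23 (95% interval -0.83 to 0.38, limma adjusted p = 0.902) and -0.31. By the first probe it was -0.057 without young array 1, -0.12 without geriatric array 3, -0.34 without young array 3 and -0.39 without geriatric array 4.

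Pnp, the phosphorylase that splits inosine and guanosine, also has 2 tested probes, at chr14:51571344-51571403 and, 1684 bases further along the transcript, at chr14:51573028-51573087. The brighter read 3754, 7379 and 3234 on young arrays and 4906, 4491, 9443 and 6240 on geriatric arrays, and the other read 720.6, 2365 and 1299 against 1816, 1655, 4627 and 2713. In both, young array 2 lay among the geriatric arrays and geriatric array 3 was the highest of all. The log2 difference was 0.60 by the brighter probe, with a 95% interval of -0.40 to 1.60 (limma adjusted p = 0.821), and 1.16 ± 0.53 (SE) by the other (limma adjusted p = 0.718 with each probe as a feature). By the brighter probe it was 0.96 without young array 2, 0.33 without young array 3 and 0.08 within the first slide row.

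Pnp2 is the tandem copy of Pnp and lies next to it, with a probe at chr14:51584365-51584424. It is no member and comes from the list of other purine enzymes, where it had the largest positive difference. Its signals were 105.1, 160.6 and 297.5 on young arrays and 408.3, 348, 436.1 and 719.6 on geriatric arrays. All geriatric arrays were above all young ones, with a log2 difference of 1.58 ± 0.46 (SE), and this did not pass the adjusted test (limma adjusted p = 0.514). The stretches below show how far the probes of the copies differ, with their longest shared run of 6 bases in capitals. Aligned without gaps, the brighter Pnp probe and the Pnp2 probe were identical at 17 of 60 positions. Only the probes were compared, so whether either probe also binds the transcript of the other copy was not tested.
Pnp A_66_P138137: ctctactctGTTTCCttgatgaagtcacta
Pnp2 A_55_P1976898: actcgggagggGTTTCCctctttataagca

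At the last step of the pathway, Xdh was the member with the largest difference. Xdh, xanthine dehydrogenase, is a molybdenum enzyme that makes uric acid and can act as an oxidase that releases reactive oxygen species. It has a single probe, on the minus strand at chr17:74233511-74233570, at position 4264 of the transcript, of which the first 30 bases are shown because this probe alone carries the Xdh result.
Xdh A_51_P312121: ttgagtaattctgggtgattctgagtccat

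Xdh read 246.9, 282.9 and 201.4 on the young arrays and 1115, 1000, 1510 and 1232 on geriatric arrays 1 to 4. Every geriatric array was above every young one, and the software's own error per spot was 20.8 to 28.8 for the young and 100 to 151 for the geriatric signals. The level was -2.66 ± 0.30 (SD, n = 3) in young and -0.23 ± 0.24 (SD, n = 3) in geriatric cells, a log2 difference of 2.43 with a standard error of 0.23, or 5.40-fold higher. A larger difference in that direction was found for 223 of 27391 features, and 1968 (7.18%) had all 3 geriatric samples above all 3 young. Among the 9 tested members, Xdh and Adora2b were the 2 without overlap between the groups, and 3516 features (12.8%) had none over the array. Since both were chosen for this contrast, that count says nothing more about the set. Within the first slide row, where geriatric array 1 is the only geriatric array, the log2 differences were 2.15 for Xdh and -1.59 for Adora2b. Leaving out each array or the averaged sample in turn gave 2.26 to 2.57 for Xdh and -2.08 to -1.81 for Adora2b.

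**Figure D2:**
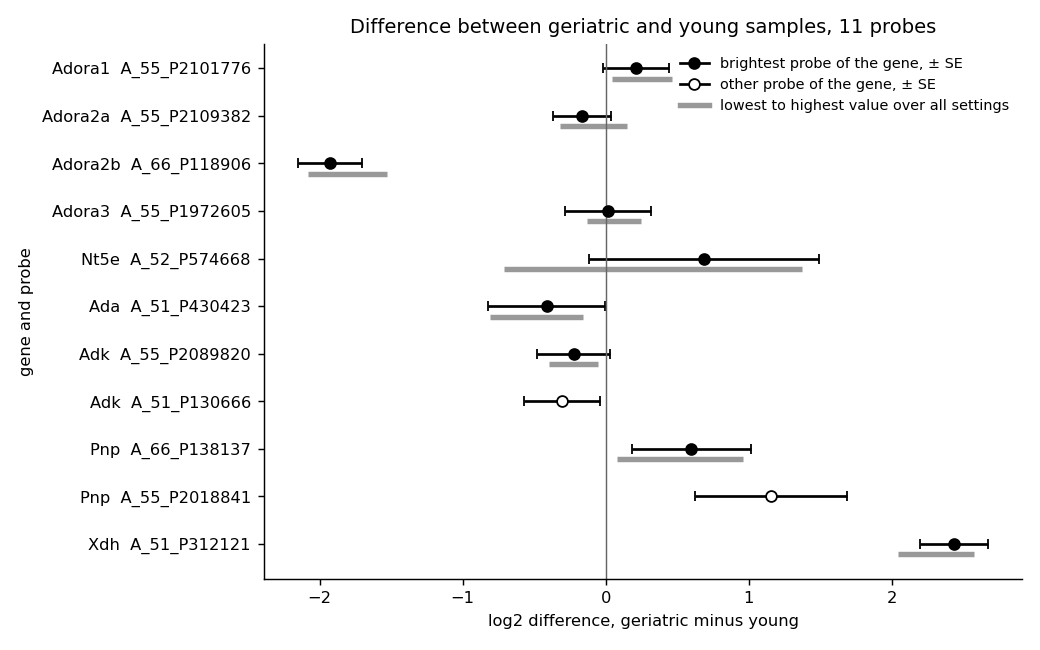
Log2 difference, geriatric minus young (horizontal axis), for the 11 tested member probes, with bars of ± 1 SE from limma with each probe as a feature. Grey bars span the lowest to highest value for the gene over all alternatives tried, which include leaving out samples and the slide row as well as processing settings. Xdh at 2.43 and Adora2b at -1.93 lie away from zero over their whole grey range, and the grey ranges of the other 7 genes cross zero or come near it, ending at -0.16 for Ada and 0.08 for Pnp.

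Across the 6 samples, Xdh, Nt5e and the brighter Pnp probe were ordered alike within each group. Young 3 was below young 1, and young 1 below young 2. The averaged geriatric sample was below geriatric 4, and geriatric 4 below geriatric 3. For Xdh, geriatric 4 and geriatric 3 were close, at -0.11 and -0.07. The other Pnp probe had the same order among the geriatric samples but was lowest in young 1. Adora2b was highest in young 1 and lowest in geriatric 3. On the pair of arrays that share a name, the 11 tested probes differed by 0.0014 (Xdh) to 0.36 (Adora3) log2 units, with a median of 0.04.

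Markers of other cell types also differed between samples. Of 11 markers of fibro-adipogenic progenitors, the mesenchymal cells of the muscle interstitium, 10 were tested and 8 were higher in geriatric cells (49.7% of all features were), with a median log2 difference of 0.74. With limma 0 passed the adjusted test and 3 had an unadjusted p under 0.05, against 7.23% of all features. Their median deviation from the 6-sample mean was -0.37, -0.31 and -0.24 in young samples 1 to 3, and 0.04, 0.83 and 0.55 in the averaged sample, geriatric 3 and geriatric 4. Their summed linear level was 44.6 to 60.04 in young and 57.0 to 65.7 in geriatric arrays, in units of the 75th percentile. Most of it came from the Col3a1 and Gsn probes, with log2 differences of -0.13 and 0.02. Such sums add probes whose levels cannot be compared, so the brightest probes set them. The 3 with an unadjusted limma p under 0.05 were all higher, Mfap5 at 2.45, Dcn at 1.56 and Dpt at 0.75. Dcn, also bright, had levels of 2.47, 2.56 and 1.54 in young samples. Its levels were 2.55, 4.37 and 4.32 in the averaged sample, geriatric 3 and geriatric 4. The 2 lower markers were Col3a1 and Col1a1, the second at -0.01. Pdgfra was not tested, and Ly6a, which encodes the Sca1 used to remove such cells, cleared the background on 2 young and 2 geriatric arrays.

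The endothelial markers had 9 of 11 tested, 5 of them higher, and a median deviation of 1.56 in geriatric 4 against -0.30 to 0.24 in the other 5 samples. Their summed level was 7.88 to 9.81 in young and 8.57 to 12.5 in geriatric arrays, most of it from the Tek probe, and Cdh5 and Tie1 were not tested. The log2 differences ran from -0.966 for Esam to 2.525 for Flt1. Pecam1, which encodes the CD31 used to remove such cells, had a level of -0.86 in geriatric 4. It lay between -6.44 and -2.90 in the other 5 samples. Without geriatric 4 the log2 differences were 2.37 for Xdh and -1.88 for Adora2b. Of the 9 markers of pericytes and smooth muscle, 6 were higher and 3 lower, with a median of 0.11. Their summed level was 67.0 to 99.0 in young and 85.4 to 97.9 in geriatric arrays, most of it from the Des and Notch3 probes. Of 12 markers of macrophages and monocytes, 8 were tested and 5 were higher, with a summed level of 92.2 to 101.9 in young and 88.6 to 115.2 in geriatric arrays that came almost wholly from the probe of Itgam, which encodes the CD11b used to remove such cells, while C1qa, C1qc, Lyz2 and Mrc1 were not tested. For mast cells 3 of 8 markers were tested and 2 were higher, with a median log2 difference of 0.01, and for lymphocytes 6 of 10 were tested and 3 were higher, with a median of -0.06. The part of such cells in the Xdh, Nt5e and Pnp values was not tested.

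**Figure D3:**
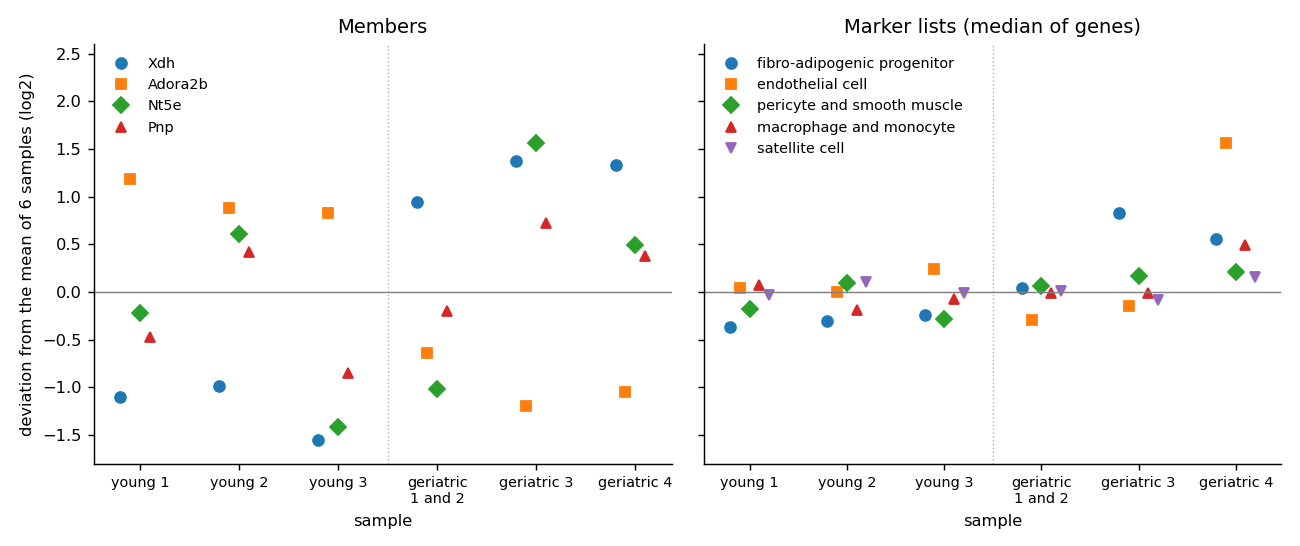
Deviation from the mean of the 6 samples (log2, vertical axis) of Xdh, Adora2b, Nt5e and Pnp (left) and the median deviation of the genes of each marker list (right), for 3 young and 3 geriatric samples with geriatric arrays 1 and 2 averaged. Xdh and Adora2b split by group, Nt5e and Pnp vary within the groups, fibro-adipogenic markers reach 0.83 in geriatric 3, and endothelial markers reach 1.56 in geriatric 4.

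The genes whose profile was most like that of a member were listed by Pearson correlation of levels over the 6 samples, among 4560 named genes with an SD of at least 0.5. For Xdh these were Vat1l (r = 0.986), Rnase4 (0.983), Pdgfrb (0.981), Aass (0.980) and Gstm2 (0.980), each higher in all 3 geriatric samples. Rnase4, a secreted ribonuclease, had levels of 2.31, 2.46 and 1.88 in young and 3.21, 3.60 and 3.77 in geriatric samples. Vat1l was well above background on 0 of 3 young and all 4 geriatric arrays. It was tested through its geriatric arrays alone, and its likeness to Xdh rests on young values at background. Pdgfrb, the receptor of platelet-derived growth factor B and one of the pericyte markers, had a log2 difference of 2.24. It had the largest positive value of that list, in which 6 of 9 were higher. The other 3 were lower, Kcnj8 at -2.43, Rgs5 at -0.805 and Acta2 at -0.23.

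For Adora2b the most similar were Mmp28 (r = 0.996), Plac9 (0.985), Kif23 (0.981), Tlcd1 (0.981) and Hist1h2bb (0.980), each lower in all 3 geriatric samples. Mmp28, a secreted metalloproteinase, had levels of -1.37, -1.68 and -1.69 in young and -2.38, -2.72 and -2.67 in geriatric samples. Kif23, a kinesin of cell division, was well above background on all 3 young and 0 of 4 geriatric arrays. It was tested through its young arrays alone, and its likeness to Adora2b rests on geriatric values at background. In both lists the 6 points fall into 2 separate groups and share the scaling of their array, so these values describe likeness and are not tested.

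Around the members, 102 other genes of adenosine and purine biology in 7 lists were read in the same fit, and 88 were tested. With limma, 0 passed the adjusted test in either direction, the lowest adjusted p being 0.356 for Gnai1. An unadjusted limma p under 0.05 was found for 9 (10.2%), against 7.23% of all features. The groups did not overlap in 13 (14.8%), close to the 12.8% of all features. Their signs were almost even, with 43 higher and 45 lower and a median log2 difference of -0.02.

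Outside the cell, 10 of 13 other ectonucleotidases and phosphatases were tested, with 4 higher, 6 lower and a median of -0.39. That median was -0.23 without geriatric 3, -0.15 within the first slide row and -0.12 after averaging over probes. Among all alternatives it stayed negative, from -0.48 under array median scaling to -0.04 when dim probes were kept. Alpl, the tissue-nonspecific alkaline phosphatase that can also turn AMP into adenosine, had levels of 2.23, 0.28 and 1.40 in young and -2.46, -1.60 and -0.44 in geriatric samples. All geriatric values were below the young ones, with a log2 difference of -2.80 ± 0.69 (SE) that did not pass the test (limma adjusted p = 0.419). The largest positive value of the list was 0.36, for Entpd2, which hydrolyses ATP to ADP. All 7 nucleoside transporters were tested, with 4 higher, 3 lower and a median of 0.13 that was -0.27 without young 2 and -0.09 without geriatric 4. Slc28a3, a concentrative transporter, was at the top with 1.09 but was well above background on only 1 young and 3 geriatric arrays, and Slc29a4 was at the bottom with -0.64.

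Inside the cell, 18 of 24 other breakdown and salvage enzymes were tested, with 8 higher and 10 lower, from Pnp2 at 1.58 to the aldehyde oxidase Aox1 at -0.39, and a median of -0.11 that was 0.05 without geriatric 3. Xdh needs the molybdenum cofactor, and all 5 genes of its synthesis were tested. Of these, 4 were higher and 1 lower, with a median of 0.24. That median was 0.39 without the averaged sample, 0.16 without geriatric 3 and 0.10 within the first slide row. Mocos, the sulfurase that activates the cofactor in Xdh and aldehyde oxidases, had levels of -2.72, -0.73 and -2.71 in young and -0.90, -1.20 and 0.01 in geriatric samples, a log2 difference of 1.36 ± 0.64 (SE; limma adjusted p = 0.738) with young 2 among the geriatric samples. Mocs3 had the opposite sign, at -1.31 ± 0.40 (SE; limma adjusted p = 0.549), with all geriatric samples below the young. All 13 genes of de novo purine synthesis were tested, and 11 were lower and 2 higher (49.7% of all features were higher), with a median of -0.30 that was -0.13 without young 1 and -0.19 without young 3. They ranged from Prps2 at -1.38 to Adssl1 at 0.30, and none had an unadjusted limma p under 0.05, against 7.23% of all features.

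On the signalling side, 11 of 14 P2X and P2Y nucleotide receptors were tested. Of these, 9 were higher and 2 lower (49.7% of all features were higher). Among the tested ones, P2ry14 is not a receptor for ATP or ADP, and its value was the list's median of 0.18. That median was -0.12 without the averaged sample, -0.01 without young 1, slightly below 0 without geriatric 4 and 0.51 within the first slide row. The ends of the list were P2ry13, an ADP receptor, at 1.27 and P2ry1, another, at -0.50. Of 26 G proteins and cyclic AMP enzymes 24 were tested, with 12 in each direction and a median of -0.05, which ranged from -0.15 without young 3 to 0.06 without the averaged sample. Gnai1, an inhibitory G protein subunit that Adora1 and Adora3 act through, had levels of -2.44, -2.999 and -3.61 in young and -1.20, -0.79 and -1.76 in geriatric samples. The groups did not overlap, and the log2 difference was 1.77 ± 0.39 (SE), short of the threshold (limma adjusted p = 0.356). Adcy3, an adenylyl cyclase, was at the other end with -0.77.

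**Figure D4:**
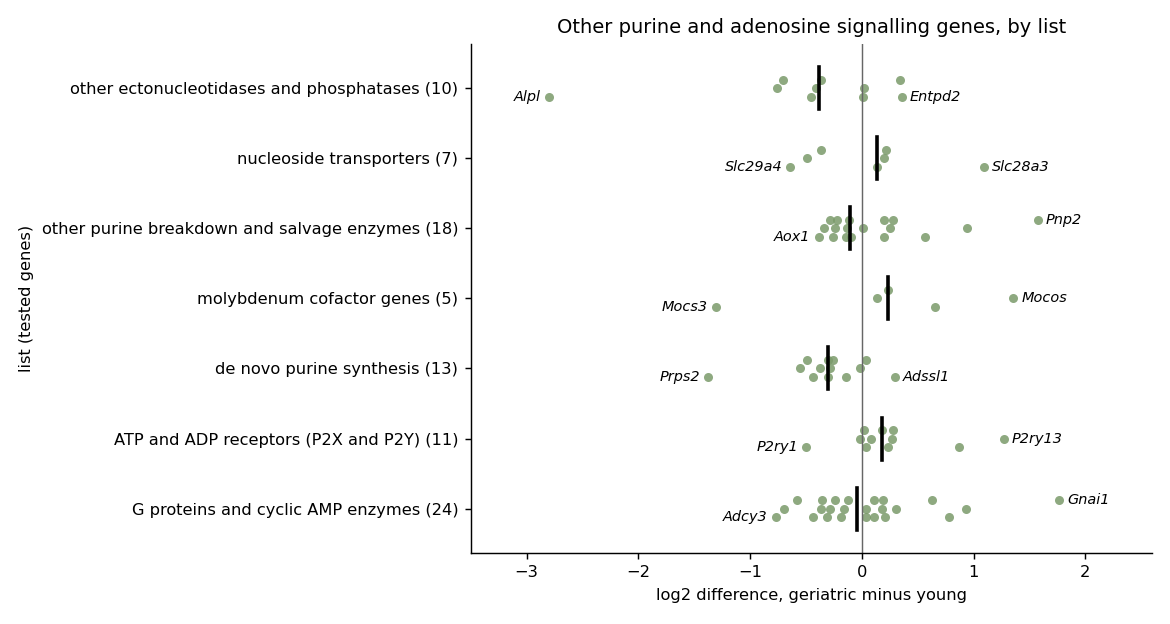
Log2 difference, geriatric minus young (horizontal axis), of each tested gene in the 7 lists around the members (rows, with the number tested), with a black bar at the median of each list and the 2 extreme genes of each list named. Most genes lie within 1 log2 unit of zero. Alpl at -2.80 and Gnai1 at 1.77 reach furthest on either side, and none passed the adjusted test. The row labelled for ATP and ADP receptors holds P2X and P2Y receptors, of which P2ry14 is not a receptor for ATP or ADP.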

How the data were processed

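Cy3-labelled cDNA of 7 samples was measured on Agilent 1-colour arrays. The deposited intensity columns, made per the file headers by Agilent's Feature Extraction 10.7.3.1, hold a background-subtracted and detrended processed signal. The authors' value table, in log2 units with array medians of 8.22 to 8.23, correlated with log2 mean signal at r = 0.9996 to 0.9998; its background correction and its software are not given in the sources used here.

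To obtain levels, the 75th percentile of each array was divided out of its processed signals and log2 taken. Spots marked as outliers, 124 to 229 an array, were dropped; no probe was saturated. Probes well above background on at least 3 arrays were tested (41261 of 55681), each gene by its brightest. Differences were tested with limma 3.58.1 in R 4.3.3 (lmFit, eBayes, 2-sided, Benjamini-Hochberg over 27391 features), after tests on simulated data. Intervals are 95% intervals from that fit. The number of arrays limits the precision. Coordinates and names are those of the array files (mm9); probe stretches are copied from the same files, and RefSeq symbols of their accessions come from a GRCm38.p6 table. Figures were drawn with matplotlib 3.10.9.

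The members, gene lists and tests were chosen with earlier results of these data known. Named are all members, the extreme gene of each pathway list in each direction and the 5 most similar genes to Xdh and Adora2b; marker genes named beside them were chosen after their values were seen.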

Additional observations from a re-analysis of the deposited data

How the results depend on the processing

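Xdh stayed higher and Adora2b lower in geriatric cells under all 20 alternatives, but not all of these could move the values. Each gene was read by the same single probe under both changed background filters, the probe mean and each probe as a row. These and the balanced replicate block therefore returned the first values, 2.43 and -1.93. The log2 differences of Xdh and Adora2b were 2.09 and -1.53 with normexp background correction, and 2.04 and -1.59 with the authors' value table. They were 2.15 and -1.59 both with slide row as a block and within slide row 1, which are 1 contrast that rests on 1 geriatric array. The row numbers are read from the ends of the sample descriptions. Of all features, limma called 7 at first, 4 with normexp, 4 with the authors' values, 2 with probes above background on all 7 arrays, 3 within slide row 1, 0 with slide row as a block (1633 with an unadjusted p under 0.05) and 64 with geriatric arrays 1 and 2 as 2 samples. Leaving out a replicate gave 0 (without young 1, young 2 or geriatric 4) to 8. Members called were 2, Xdh and Adora2b, with arrays 1 and 2 as 2 samples, a call that rests on counting a shared sample name as 2 and on the contrast that chose them, and 0 otherwise. With the sample-name numbers as a replicate block, 0 features were called (2075 with an unadjusted p under 0.05). Same-numbered samples had correlations of -0.04 to 0.04 in their deviations, and differently numbered ones -0.11 to 0.08. With so few samples these values cannot settle whether the numbers pair samples. Signs turned for Adora2a (0.15) and Nt5e (-0.71) with slide row as a block and within row 1. Adora3 turned to -0.074 with array median scaling, -0.077 with quantile normalization, -0.081 with the authors' values and, leaving out a replicate, ranged from -0.13 to 0.25. The causes were not tested. Adora1, Ada, Adk and Pnp kept their sign under every alternative that gave a value. Nt5e and Ada have no value where probes must be above background on all 7 arrays. Nt5e, Ada, Entpd1 and the distal Adora2b probe lie near or under background, where signal over background limits any comparison.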
